A study of Homo sapiens with 2 samples.

Results

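Kinesins are motor proteins that bind microtubules and use ATP to move along them or to take them apart. Mitotic kinesins build the spindle, move chromosomes and drive cytokinesis, and many of their genes are transcribed mainly in dividing cells. Transport kinesins carry vesicles, organelles and ciliary cargo, often with light chains or adaptor proteins that choose the load. The genes described here are all those whose symbol is KIF followed by a number and an optional letter, taken from probe sets for which the platform annotation lists a single gene. The rule found 38 genes with 80 probe sets, of 19775 named genes and 54675 probe sets on each array.

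RNA came from CL1-0, an established human lung adenocarcinoma line, in 2 samples measured on 1 Affymetrix expression array each. Cells of the first sample were transduced with a control vector and those of the second with a vector for FDFT1, which encodes squalene synthase, the first enzyme committed to sterol synthesis. Both were stably transduced and selected with puromycin for 2 weeks, and the sources used here do not say which promoter drove FDFT1 or how many clones were kept. Each value is a MAS5 signal, a brightness in arbitrary units on a linear scale. There were no replicates (1 array per group), so no p-value is given and a difference holds for these 2 arrays alone.

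Of the 38 kinesin genes, 32 were measured, meaning that at least 1 of their probe sets reached the floor, the median of all signals (12.2), on 1 array or both. Of the 80 probe sets, 60 were measured. The brightest measured probe set stood for its gene, and a difference is log2 of the FDFT1 over the control signal after the arrays were centred on their median difference (-0.11, FDFT1 minus control). Signals are printed as deposited, and without centring every difference between values above the floor moves down by that amount. The probe-set error of a difference, taken from how far a gene's probe sets disagree at a like signal, fell with brightness: 0.48 below a mean log2 signal of 5, then 0.30 up to 7, 0.22 up to 9, 0.16 up to 11, and 0.097 beyond. It covers probes and transcripts, not cultures.

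No kinesin gene was 2-fold different between the arrays. Of all 12962 measured genes, 0.54% were at least 2-fold higher with FDFT1 and 0.571% at least 2-fold lower. At a smaller size of 0.5 on the log2 scale, 1 of the 32 kinesins was higher (5.49% of all genes) and 2 were lower (4.84% of all genes). These were KIF21B on the high side and KIF1A and KIF17 on the low side. At 1.5-fold, 0 kinesins were higher (3.87% of all genes) and 2 were lower (3.23% of all genes), again KIF1A and KIF17. Differences were above 0 for 18 kinesins and below 0 for 14, against 49.8% of all genes above 0; without centring, 10 were above 0 and 22 below, against 32.4% of all genes above 0. The 8 that changed side were KIF13A, KIF15, KIF18A, KIF26A, KIF2A, KIF3B, KIF5B and KIF9, all within 0.11 of 0. The median was 0.033 over the kinesins and -0.0012 over all measured genes. The largest differences relative to the probe-set error were in KIF1A, KIF11, KIF22 and KIF21A, and these 4 genes of 32 lay beyond 2 errors, or 12.5% against 7.31% of all genes.

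The mitotic kinesins had signals well above the floor in this line. Of 12 listed, 11 were measured, and all 11 reached a signal of 99.4, the 75th percentile of all signals, on 1 array or both; 62.3% of all measured genes did so. Of 13 transport kinesins all were measured and 9 reached that signal. Of 13 other kinesins 8 were measured and 4 reached it. Signals of the mitotic genes ran from 127 to 2031 on the control array and from 125 to 2129 with FDFT1. Those of the transport genes ran from 25.2 to 3087 and from 14.9 to 2994. Signals of different probe sets depend on their probes as well as on the transcripts, so these ranges give no order of transcript amounts between genes or between the role lists.

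Promoter sequences of the mitotic genes are shown because their expression is known to be tied to cell division through short elements near the gene start. The cell cycle genes homology region, or CHR, is bound by MuvB complexes in many genes of late cell cycle phases, and the CCAAT box is bound by NF-Y. The RefSeq promoter table (GRCh38.p14) held windows of 300 bases, from 250 before to 50 after a gene start, for 32 of the 38 genes, in 41 windows. TTTGAA was the only form of the CHR searched, on both strands, and 15.2% of all 35116 windows held it. Matches were in 8 of 13 mitotic windows (61.5%), 1 of 16 transport windows (6.25%) and 0 of 12 windows of other kinesins. CCAAT, also on both strands, was in 9, 5 and 4 of these windows, against 34.6% of all. No CHR match shared a base with a CCAAT match in these kinesin windows. Both motifs occurred in 7 of 13 mitotic windows (53.8%) and in 5.9% of all windows. These are matches of letters, not measured sites.

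In the next sequences, 125 bases from -100 to +25 of the gene start, capitals mark TTTGAA or its reverse TTCAAA and CCAAT or its reverse ATTGG. They show 6 mitotic kinesins with both motifs: KIF11 at chr10:92593030-92593154 on the plus strand, KIF4A at chrX:70290004-70290128 (plus), KIF23 at chr15:69414249-69414373 (plus), KIF18A at chr11:28108132-28108256 (minus), KIF18B at chr17:44947749-44947873 (minus) and KIF14 at chr1:200620727-200620851 (minus).
KIF11: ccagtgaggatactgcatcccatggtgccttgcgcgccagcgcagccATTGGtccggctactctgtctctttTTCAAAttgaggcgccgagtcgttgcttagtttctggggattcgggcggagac
KIF4A: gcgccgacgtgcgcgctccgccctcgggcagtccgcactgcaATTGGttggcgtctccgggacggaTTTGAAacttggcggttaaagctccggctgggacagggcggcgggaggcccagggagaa
KIF23: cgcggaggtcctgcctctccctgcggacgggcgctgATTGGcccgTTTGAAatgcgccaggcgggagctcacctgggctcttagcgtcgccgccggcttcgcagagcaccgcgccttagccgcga
KIF18A: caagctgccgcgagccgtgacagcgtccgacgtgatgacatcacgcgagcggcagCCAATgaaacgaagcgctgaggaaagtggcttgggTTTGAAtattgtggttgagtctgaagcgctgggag
KIF18B: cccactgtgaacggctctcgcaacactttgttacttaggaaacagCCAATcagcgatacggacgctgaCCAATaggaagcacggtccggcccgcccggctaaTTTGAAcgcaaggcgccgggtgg
KIF14: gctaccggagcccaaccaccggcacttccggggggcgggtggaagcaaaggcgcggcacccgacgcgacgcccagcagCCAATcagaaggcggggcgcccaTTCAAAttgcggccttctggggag
The first base of the CHR match lay at -28 in KIF11, -34 in KIF4A, -55 in KIF23, -10 in KIF18A, 3 in KIF18B and 2 in KIF14. From the nearest CCAAT match to the CHR match, counted from first base to first base, there were 25 bases in KIF11, 24 in KIF4A, 23 in KIF14, 34 in KIF18B, 35 in KIF18A and 9 in KIF23. KIF20B held CHR matches further on, at 25 and 31, with the nearest CCAAT match 122 bases away, and KIF15 held a CHR match at -35 and no CCAAT. The 1 transport gene with both was KIF5B, where the CHR match lay at -140 and 81 bases from the CCAAT match.

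Not all mitotic kinesins held these letters. The next sequences are shown for contrast. KIF20A at chr5:138179012-138179136 (plus) had 2 CCAAT matches and no TTTGAA, and KIF2C at chr1:44739737-44739861 (plus) had neither TTTGAA nor CCAAT. KIF3A, a transport gene at chr5:132737522-132737646 (minus), also had neither.
KIF20A: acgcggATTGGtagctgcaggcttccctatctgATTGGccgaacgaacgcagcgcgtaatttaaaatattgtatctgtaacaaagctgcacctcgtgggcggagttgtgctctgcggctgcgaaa
KIF2C: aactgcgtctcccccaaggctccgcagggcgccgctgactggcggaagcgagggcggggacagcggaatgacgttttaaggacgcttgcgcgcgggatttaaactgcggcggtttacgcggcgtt
KIF3A: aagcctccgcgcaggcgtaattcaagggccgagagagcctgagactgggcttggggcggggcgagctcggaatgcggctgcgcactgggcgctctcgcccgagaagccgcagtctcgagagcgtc
KIF22 held a CCAAT match in 1 of its 2 windows and no TTTGAA, and KIF2B held neither. A window with no match says only that these letters are absent from it. Other forms of the CHR were not searched for. The printed KIF20A and KIF2C sequences hold TTTAAA, which was not counted as a match.

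**Figure D1:**
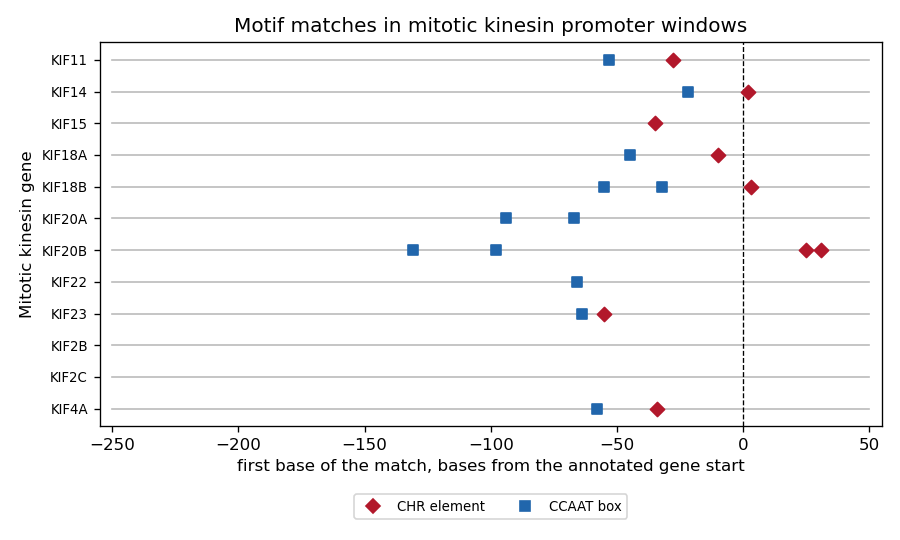
Positions of TTTGAA (CHR, diamonds) and CCAAT (squares) matches on either strand in the promoter windows of the 12 mitotic kinesin genes; the x axis gives the first base of each match in bases from the annotated gene start, and the dashed line marks the start. In KIF11, KIF4A, KIF14, KIF18A, KIF18B and KIF23 a CHR match lies within 35 bases of a CCAAT match. KIF2B and KIF2C hold neither TTTGAA nor CCAAT.

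Among the spindle motors, KIF11 was the member with the largest positive difference. KIF11 is the kinesin-5 motor that pushes spindle poles apart. Its 1 probe set read 649.6 with the control vector and 831 with FDFT1, a difference of 0.46 with an error of 0.16. KIF15, a kinesin-12 that can share this work at the spindle, read 348 and 335, a difference of 0.049, inside its error of 0.22.

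KIF2C, known as MCAK, removes tubulin from microtubule ends at centromeres. Its brighter probe set read 2031 and 2129, a difference of 0.17 with an error of 0.097. The second probe set read 926 and 805 and lay on the other side, at -0.096. KIF18A, a kinesin-8 that restrains chromosome movements at metaphase, read 127 and 125 (0.077). KIF18B, a partner of KIF2C at astral microtubules, read 969 and 815 (-0.14, error 0.16). KIF2B, a relative of KIF2C, did not reach the floor, with a highest signal of 3.91.

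Of the chromosome arm motors, KIF22 was below 0 beyond its error on its brightest probe set, and KIF4A lay inside its error. KIF22, the chromokinesin Kid, read 564 on the control array and 383 with FDFT1, a difference of -0.45 with an error of 0.22. This was the lowest value among mitotic kinesins, but its second probe set read 247 and 242 and lay at 0.077 (-0.029 without centring). KIF4A, a chromokinesin that also acts at the central spindle with PRC1, read 1525 and 1364 (-0.055, error 0.16). KIF4B is a near-identical copy with no probe set of its own among those used here, so the KIF4A value may include it.

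Motors of the central spindle and cytokinesis stayed close to 0 or split between probe sets. KIF23, the motor of centralspindlin, read 628 and 634 on its brighter probe set, a difference of 0.12. Its other probe set was near the floor (20.7 and 14.6) and lay at -0.40. KIF20A, which brings the chromosomal passenger complex to the midzone, read 1331 and 1202 (-0.041). KIF14, which acts with citron kinase in abscission, read 1093 and 870.5 (-0.22, error 0.16) on 1 probe set and 837 and 899 (0.21) on the other. KIF20B, another motor of the late division stages, read 637 and 505 (-0.23, error 0.16); its second measured probe set was under the floor on the control array (2.67) and read 14.3 with FDFT1, which puts its difference at 0.28 or more.

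As a list the 11 measured mitotic kinesins had 5 differences above 0 and 6 below, with a median of -0.041. The range was -0.45 to 0.46. Beyond 1 probe-set error lay 5 of them (45.5%, against 33.1% of all genes): KIF11 and KIF2C above 0, and KIF22, KIF20B and KIF14 below. Of the 5 mitotic genes with at least 2 measured probe sets, 0 had all probe sets on the same side of 0. The share over all such genes was 40.9%. Without centring KIF22 had all on the same side, or 1 of 5, against 44.2%. Each of these 5 has exactly 2 measured probe sets. The shares also cover genes with more, so the comparison is not like for like. In KIF20B and KIF23 the second probe set was near or under the floor. The 8 mitotic genes with a TTTGAA match had a median of -0.0032, with 4 above 0 and 4 below, and the 3 measured without it had a median of -0.041.

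**Figure D2:**
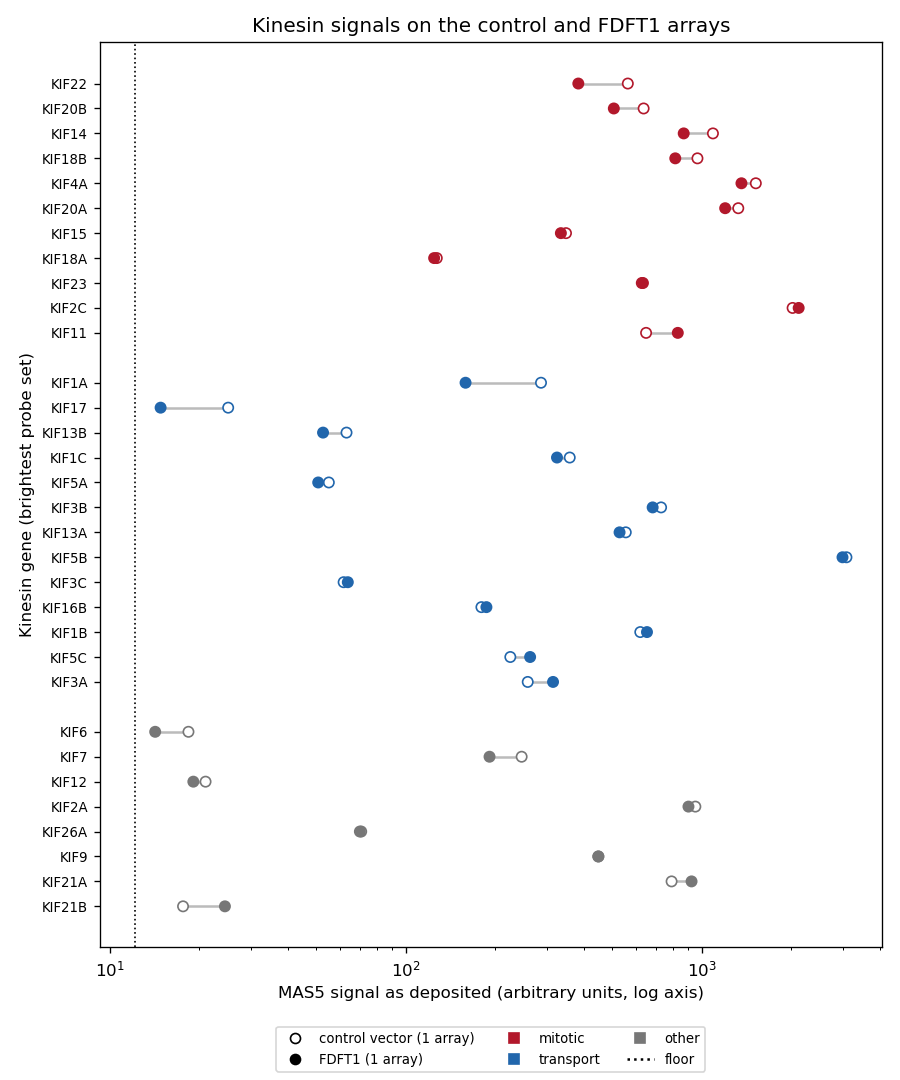
Deposited MAS5 signals (log axis, arbitrary units) of the brightest probe set of the 32 measured kinesin genes, with open points for the control array, filled points for the FDFT1 array and 1 array per group; colours give the role and the dotted line the floor of 12.2. The 11 mitotic genes lie between 125 and 2129, and KIF1A, at 287 and 159, shows the widest gap among genes above a signal of 99.4.

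Kinesin-1, the conventional cargo motor, has KIF5A, KIF5B and KIF5C as heavy chains. KIF5B, the form found in most tissues, was nearly level, at 3087 and 2994 on its brightest probe set and 3018 and 2954 on the next. Their differences were 0.062 and 0.075 with an error of 0.097, and the third probe set (257 and 299) lay at 0.32. KIF5C, a form known from neurons, read 226 and 264, a difference of 0.33 with an error of 0.22. Its other probe sets lay on the opposite side, at -0.13 and -0.44, so its direction depends on the probe set. KIF5A, also neuronal, read 55.1 and 50.7 (-0.013), with other probe sets at -0.50 and, against a control value under the floor, at 0.57 or more.

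Kinesin-2 moves cargo into cilia as well as through the cytoplasm. KIF3A, a chain of its main heterodimer, read 259 and 315 on the brighter probe set and 115 and 132 on the other. Both differences were above 0, at 0.39 (error 0.22) and 0.30 (error 0.30), and the first is the highest of the transport list on the brightest probe sets. KIF3B, its usual partner chain, read 730 and 684 (0.011) and 714 and 611 (-0.12). KIF3C read 61.8 and 63.8 (0.15), with -0.21 on its other probe set. KIF17, the homodimeric kinesin-2, was dim, at 25.2 on the control array and 14.9 with FDFT1; its difference of -0.65 on 1 probe set has an error of 0.48.

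Kinesin-3 motors are fast vesicle carriers, and on the brightest probe sets KIF1A gave the largest difference of any kinesin. KIF1A, which carries synaptic vesicle precursors and dense core vesicles in neurons, read 287 on the control array and 159 with FDFT1. The difference was -0.74, or 1.67-fold lower, with an error of 0.22. Its second measured probe set read 49.9 and 43.8 and lay at -0.082, inside its error of 0.30, and the mean of both was -0.41. By means of probe sets KIF17, KIF21B, KIF11 and KIF13A were farther from 0 than KIF1A, and without _x_at and _s_at probe sets KIF13A was, at 0.81. The related KIF1B, which carries mitochondria and vesicles, had 3 of 3 measured probe sets above 0 after centring: 621 and 654 (0.18), 248 and 269 (0.22) and 283 and 267 (0.022). KIF1C, a carrier of dense core vesicles and integrins, read 359 and 325 (-0.037), with -0.28 on its other probe set.

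The endosomal kinesin-3 motors showed no shared shift. KIF13A, which moves recycling endosomes, read 555 and 528 on its brightest probe set, a difference of 0.036. Its dimmer probe sets lay higher, at 0.81 (42.8 and 69.6), 0.54 (28.3 and 38.2) and 0.36 (25.5 and 30.5), so all 4 were above 0 with a mean of 0.44; without centring the brightest lay at -0.070. KIF13B, a relative, read 63.2 and 52.6 (-0.16, error 0.30). KIF16B, which moves early endosomes through a lipid-binding domain, read 180.4 and 188 (0.16), with -0.079 on its other probe set.

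Over the 13 transport kinesins, the median difference was 0.036, with 8 above 0 and 5 below. Beyond 1 probe-set error lay 5 of them (38.5%, against 33.1% of all genes): KIF3A, KIF5C and KIF1B above 0, and KIF1A and KIF17 below. Of 11 transport genes with at least 2 measured probe sets, 6 had all on the same side of 0 (54.5%, against 40.9% of all such genes), namely KIF13A, KIF5B, KIF1B and KIF3A above and KIF1A and KIF1C below. Without centring these were 4 (36.4%, against 44.2%), KIF3A above and KIF1A, KIF1C and KIF3B below. The mitotic median minus the transport median was -0.077, and no test was made of it. When a gene's probe sets were averaged it was 0.021, so the order of the medians of both lists turned, and with KIF2A and KIF24 counted as mitotic it was -0.043.

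**Figure D3:**
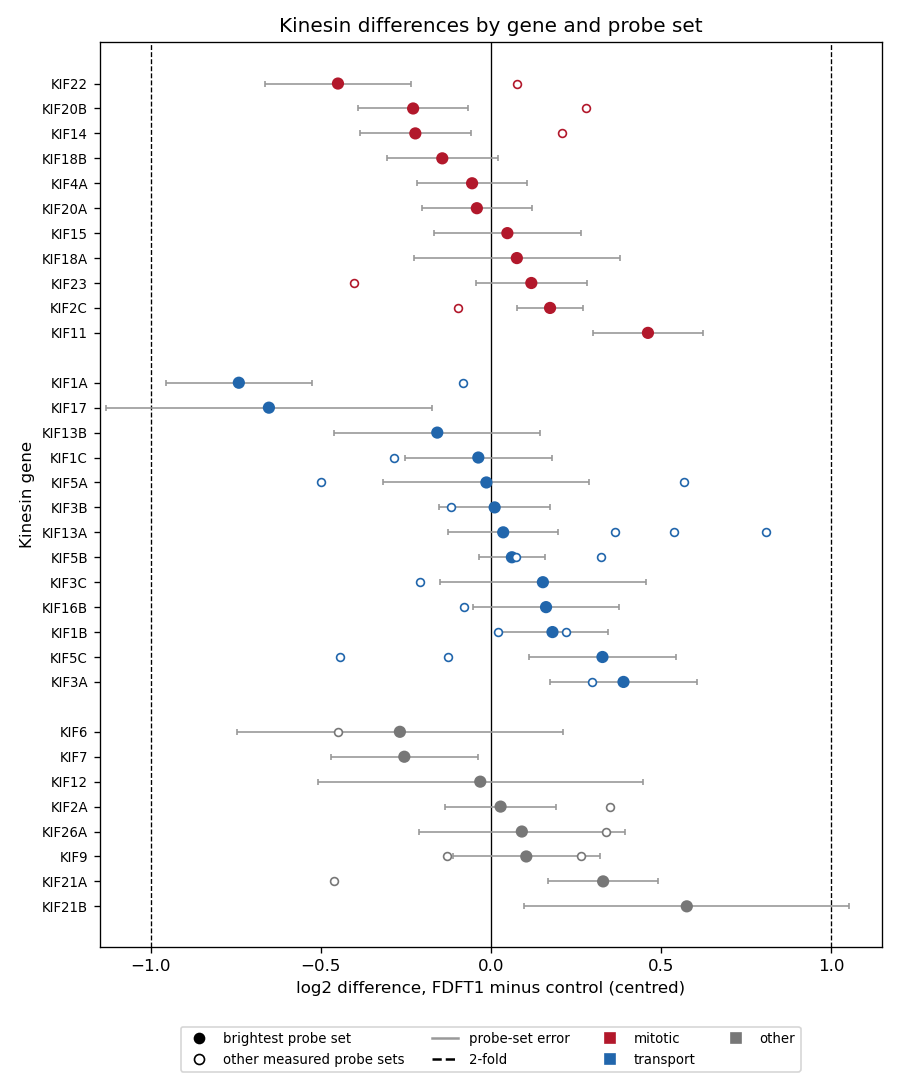
Log2 difference (FDFT1 minus control, centred) of each measured kinesin gene, with filled points for the brightest probe set, open points for its other measured probe sets, bars for the probe-set error on either side and dashed lines at 2-fold. KIF1A at -0.74 and KIF11 at 0.46 lie farther from 0 than their error, no filled point reaches 2-fold, and in all 5 mitotic genes with several probe sets these fall on both sides of 0.

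The other kinesins include regulators of microtubule length and of cilia, and 4 of the 8 measured reached a signal of 99.4. KIF2A, a depolymerizing relative of KIF2C that works in neurons, cilia and spindles, read 953 and 903 (0.029), with 0.35 on its second probe set. KIF21A, a kinesin-4 that limits microtubule growth at the cell cortex, read 792 and 925 (0.33, error 0.16), but its second probe set read 241 and 163 and lay at -0.46. Its relative KIF21B was dim, at 17.7 and 24.5, with a difference of 0.58 and an error of 0.48. KIF7, a regulator of Hedgehog signalling at the cilium tip, read 247 and 192 (-0.25, error 0.22).

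Apart from KIF9, the kinesins of motile cilia and the less studied members were dim or under the floor. KIF9, an axonemal kinesin, read 448 on both arrays (0.10), but its 3 measured probe sets are all of the _x_at kind, which can match other transcripts, and its remaining probe set did not exceed 5.95. KIF6, a ciliary kinesin, read 18.5 and 14.3 (-0.27) with 2 of 2 measured probe sets below 0. KIF26A, a kinesin-11, read 70.8 and 70.1 (0.091), and KIF12, expressed in epithelia of the kidney and liver, read 21.1 and 19.2 (-0.031). KIF19, KIF24, KIF25, KIF26B and KIF27 did not reach the floor on either array, with highest signals of 10.1, 2.51, 7.23, 8.95 and 5.87. The 8 measured genes had a median of 0.06, with 5 above 0 and 3 below.

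**Figure D4:**
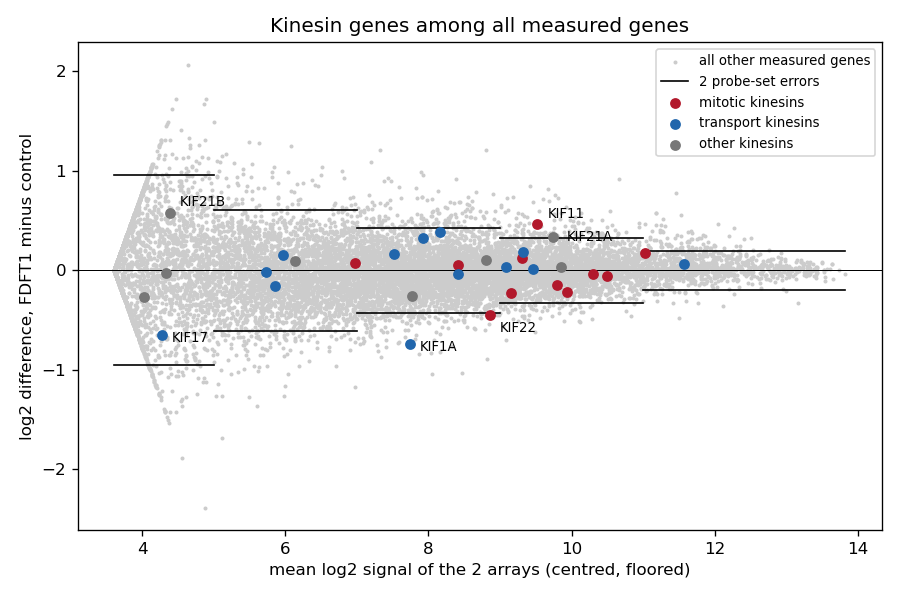
Log2 difference (FDFT1 minus control) against the mean log2 signal for the 12962 measured genes (grey) and the 32 kinesins (coloured by role); black lines mark 2 probe-set errors in each signal range. KIF1A, KIF11, KIF22 and KIF21A lie outside the lines, and KIF21B and KIF17 lie inside them at low signals.

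Kinesins with names outside the rule were measured in 4 of 5 cases. CENPE, the kinesin-7 of kinetochores, read 457 and 433 (0.027), and KIFC1, the minus-end motor that gathers spindle poles, read 543 and 504 (-0.0019). KIFC2 had the largest difference of these, at -0.69 (84.5 and 48.5, error 0.30) and -0.62 on its other probe set. STARD9, a centrosomal kinesin, read 26.7 and 27.6 (0.15), and KIFC3 did not reach the floor (7.16).

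Light chains, accessory subunits and cargo adaptors were as evenly split. Of 20 listed 18 were measured, with 9 above 0, 9 below, a median of -0.013 and 0 at least 2-fold different. The kinesin-1 light chains read 696 and 654 for KLC1 (0.018, with its 3 other probe sets below 0 and the lowest at -0.69), 256 and 249.9 for KLC2 (0.069), 29.6 and 21.6 for KLC3 (-0.35) and 33.2 and 23.7 for KLC4 (-0.38). KIFAP3, the accessory chain of kinesin-2, read 135 and 122 (-0.045). The highest differences were HAP1, a dim vesicle adaptor, at 0.76 (14.8 and 23.3, error 0.48) and RHOT1, the mitochondrial GTPase Miro1, at 0.37 (683 and 818, error 0.16) with 2 of 2 probe sets above 0. The lowest were MAPK8IP1 and MAPK8IP2, which encode JIP scaffolds. MAPK8IP1 was at -0.53 or lower with its FDFT1 value under the floor (18.3 and 10.4). MAPK8IP2 was at -0.41 (89.2 and 62.2) with 3 of 3 below 0. In the same list MAPK8IP3 was at 0.28 (61.2 and 69.1, error 0.30), with its other probe set at -0.77. SPAG9 was at 0.17 (998 and 1041, error 0.16) with 4 of 5 above 0.

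The spindle partners of the mitotic kinesins reached a signal of 99.4 in 12 of 13 measured genes (92.3%, against 62.3% of all genes). Dynein and dynactin genes did so in 19 of 19 and proliferation genes in 13 of 14. Beyond 2 probe-set errors lay 3 of the 13 spindle partners (23.1%, against 7.31% of all genes): HMMR and AURKA above 0 and AURKB below. All of these are in the brightest range, where the error is smallest (0.097). In the other lists it was 1 of 18 light chains and adaptors, 1 of 14 proliferation genes and 0 of 19 dynein and dynactin genes. Among the kinesins named otherwise it was 1 of 4. RACGAP1, the partner of KIF23, was at -0.0049 (3374 and 3124), PRC1, the partner of KIF4A, at -0.00039 (3291 and 3057), and TPX2, which binds KIF11 and KIF15, at -0.0060 (2324 and 2151), each with an error of 0.097. The median over 13 measured partners was 0.012, with 7 differences above 0 and 6 below. HMMR, a spindle protein, was at 0.37 (2985 and 3595) and ECT2, the exchange factor for RhoA at the midzone, at 0.30 (1760 and 2020), both with 2 of 2 probe sets above 0. AURKA, a spindle pole kinase, was at 0.24 (2334 and 2558), with 2 of 3 probe sets above 0. AURKB, the kinase carried by KIF20A, was at -0.23 (2552 and 2017) with its other probe set at 0.46, and PLK1 at -0.15 (386 and 324).

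Proliferation genes and regulators of the CHR and E2F programs had a median of -0.011 over 14 measured genes, with 7 above 0 and 7 below. LIN9 and LIN54, subunits of MuvB, were at 0.49 (102 and 133, error 0.30) and 0.24 (49.9 and 54.6, error 0.30). MYBL2 and FOXM1, activators of late cell cycle genes, were at -0.14 (1142 and 963) and -0.055 (669 and 598). E2F1 was at -0.50 (177 and 116, error 0.22) with 2 of 2 probe sets below 0, and CDK1 at -0.25 (2128 and 1667), where 3 of 4 probe sets lay above 0.

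Dynein and dynactin, which move cargo the opposite way to most kinesins, had 19 of 20 members measured, 10 above 0 and 9 below, with a median of 0.0074. DCTN4 was at 0.29 (1169 and 1324, 3 of 3 probe sets above 0) and the adaptor BICD2 at 0.21 (654 and 705, 4 of 4). DCTN3 was at -0.23 (1520 and 1202) and DYNC1LI1 at -0.20 (1703 and 1380), with its other probe set at 0.37. On the brightest probe sets, none of the 5 partner lists held a gene at least 2-fold different. Over all measured genes, 0.54% were higher by that much and 0.571% lower. DYNLRB1 was at -0.091 (2837 and 2475), with 4 of 4 probe sets below 0. The lowest of these lay at -1.07, past 2-fold.

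**Figure D5:**
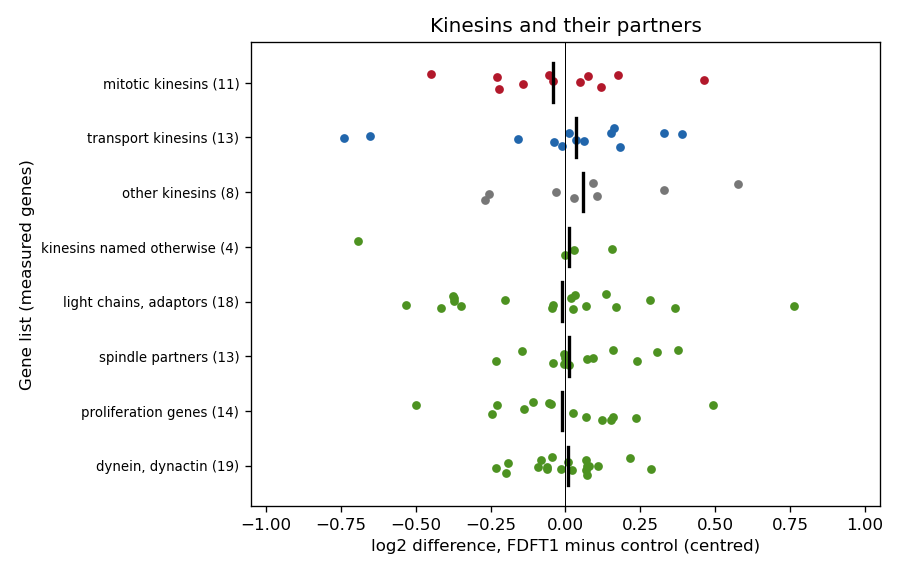
Log2 differences (FDFT1 minus control, centred) of the measured genes of the kinesin role lists and of 5 partner lists, 1 point per gene with vertical scatter for legibility and a black bar at each median. The medians lie between -0.041 and 0.06.

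Markers of cell types were checked because several kinesins are known from neurons or cilia. Of 12 neuronal and neuroendocrine markers 7 were measured, 4 above 0 and 3 below, with a median of 0.056; their summed signal was 10306 on the control array and 9965 with FDFT1, mostly TUBB3 and MAP2. SYT1, ENO2, INSM1 and STMN2 were under the floor. Beside KIF1A at -0.74, SNAP25 was at -0.40 (80.5 and 56.7), SYP at -0.85 or lower with its FDFT1 value under the floor, and TUBB3 at -0.035. MAP2 was at 0.19, CHGB at 0.13, CHGA at 0.056 and NCAM1, under the floor on the control array, at 0.073 or more. The part of these genes in the KIF1A result was not tested. Of 10 motile cilium markers 4 were measured, with a summed signal of 93.6 and 84.2, and FOXJ1 did not exceed 3.4.

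The labels give the cell type as a type II alveolar cell. Of 10 markers of that type 6 were measured, and ETV5 (383 and 281) was the only one of them to reach 99.4, while SFTPC read 29.3 and 16.9. ABCA3 read 79.9 and 55.6. SFTPB, LAMP3 and NKX2-1 read between 29.3 and 58.8, and SFTPD, NAPSA and SLC34A2 did not reach the floor. SFTPA1 had no probe set of its own among those used here. Blood and immune markers summed to 79.7 and 86.4 (4 of 6 measured, PTPRC and CD14 under the floor), and fibroblast and endothelial markers to 793 and 878 (4 of 8 measured), mostly POSTN (694 and 760). Signals of FDFT1 were not analysed here, which leaves its overexpression unchecked.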

How the data were processed

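The values are MAS5 signal intensities deposited by the authors on a linear scale, with a value for every probe set on each array. The submitters' processing notes name MAS5; its version, its scaling target and any detection calls are not given in those sources. Groups came from the sample titles. Computation used Python 3.11.15, numpy 2.4.6, pandas 2.3.3 and statsmodels 0.14.6. After removal of 62 control probe sets 54613 remained, and 41091 of them had 1 listed gene. Log2 signals were centred on the median difference over probe sets at or above the floor in both arrays, then floored at the median of all signals. The brightest probe set had the highest centred mean log2 signal. Full values were to be given for every kinesin at least 2-fold different, of which there were 0. They were also given for the highest and lowest members of each list. All other kinesins of the rule are named with their values. Other members of the partner and marker lists are named only as examples, and many of them are not named. The probe-set error compares the brightest pair of probe sets of a gene in the same signal range and is the SD of their disagreement divided by the square root of 2. Members, role lists and partner lists were chosen with earlier results of these data known. The steps were tested on simulated data. No protein sequences were used here. The number of arrays limits the precision. Alternatives were other scalings, floors, probe set choices, size thresholds and role lists.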

Additional observations from a re-analysis of the deposited data

How the results depend on the processing

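No kinesin gene was at least 2-fold different in either direction with the values as deposited, quantile normalization, loess or the mean of probe sets. The same held without _x_at and _s_at probe sets. The brightest probe sets all read above the floor on both arrays, so removing the floor changed no value. Raising it to the 75th percentile left genes out and kept the other values. Neither floor setting could therefore bring a kinesin to 2-fold, and with none at 2-fold the 3-fold threshold could find none. Over all measured genes the 2-fold counts did move with the floor. They were 70 higher and 74 lower of 12962 in the main setting, and 508 and 325 with no floor. At the 75th percentile they were 3 and 2 of 8059. At 1.5-fold, 2 were lower, KIF1A and KIF17 (3.23% of all genes), and 0 higher (3.87%). As deposited, 10 differences were above 0 and 22 below, the median of all measured genes being -0.10 there. With the floor at the 75th percentile 24 genes were left, 9 of them below 0. With KIF2A and KIF24 counted as mitotic, the mitotic median was -0.0062 and the mitotic minus transport difference -0.043. Without _x_at and _s_at probe sets the median of the other kinesins was 0.33, which is the value of KIF21A. In that setting KIF9 had no value, and KIF2A and KIF26A were read from dimmer probe sets at 0.35 and 0.34. The second probe set of KIF21A lay at -0.46. The signs of 18 of 32 genes held under every scaling and probe set choice that left them a value, among them KIF11, KIF22, KIF1A and KIF3A. The floor settings could not turn a sign, because they changed no value. Nor could the probe set choices turn the sign of a gene with 1 measured probe set, such as KIF11. KIF22 had no value without _x_at and _s_at probe sets, and its second probe set lay at 0.077. In 9 genes the mean of probe sets moved the difference by more than its error. In KIF5C and KIF23 leaving out _s_at probe sets gave -0.44 and -0.40. Causes were not tested. Dim genes, with an error of 0.48, cannot show small differences. No paired analysis was possible because each group has 1 sample.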
